A study of Mus musculus with 2 samples.

Results

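The X-zone is a transient inner layer of the mouse adrenal cortex. Open chromatin was described at 8 genes tied to it or to the aldo-keto reductases of the gland: Akr1c18, Pik3c2g, Thrb, Cyp2f2, Akr1b3, Akr1b8, Akr1b7 and Sult1e1. They were chosen by name, 8 of 21884 protein-coding genes, and each was taken with its gene body and 50 kb on each side on the mouse build mm10. The 3 Akr1b genes stand beside each other on chromosome 6 and their windows overlap, so the 8 windows join into 6 stretches of 1528 kb in all.

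DNase-seq, in which the enzyme DNase I cuts accessible DNA and the cut ends are sequenced, was run on 2 adrenal gland samples, biological replicates 1 and 2 of 1 group. The mice were B6CASTF1/J females of 10 days, a first-generation cross of a C57BL/6J and a CAST/EiJ parent, and each sample label names 3 females. The labels give both samples the same donor identifier and do not say which animals went into which, so whether the spread between the replicates is one between animals is not known. With 1 group there was no condition to compare, so all values are descriptions of 2 replicates and no test was run. The values are peak heights (a signal normalised by the authors), footprints (short stretches inside open chromatin that the enzyme spared) and stretches of bases listed at a false discovery rate (FDR) under 0.05.

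Replicate 1 had more of everything: 98813 peaks against 55135, 339116 footprints against 241536, and 51.5 Mb of listed bases against 34.0 Mb. In 48355 places the replicates had overlapping peaks, called shared here, and 93.0% of those were higher in replicate 1, with a median log2 ratio of 0.73. The labelled tissue was checked on promoter peaks found in both replicates. Of 7 cortex markers 5 had one, while Cyp21a1 and Mc2r had one in replicate 1 only. Of 7 medulla markers 3 had one, and Pnmt had none in either replicate. Adipocyte markers had one at 7 of 8 genes, endothelium markers at 2 of 4, gonad at 4 of 6, liver at 1 of 5, lung at 1 of 5 and kidney at 1 of 4. The part of fat or other cells in the peaks below was not tested. In a whole gland, fewer cells of a type and less open chromatin per cell cannot be told apart.

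As background, the X-zone lies next to the medulla, descends from the fetal cortex and disappears at puberty in males and in the first pregnancy in females. Akr1c18 and Pik3c2g are its usual marker genes, and Thrb encodes the thyroid hormone receptor through which thyroid hormone can enlarge it. Aldo-keto reductases use NADPH to reduce aldehydes and ketones. The Akr1c enzymes act mostly on steroids, and the Akr1b enzymes on sugars, lipid aldehydes and the aldehyde that is released when the side chain of cholesterol is removed.

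A peak within 1 kb of any start annotated for a gene was counted as its promoter peak. By that measure 4 of the 8 genes, Thrb, Cyp2f2, Akr1b3 and Akr1b7, had a promoter peak in both replicates, beside 63.6% of all protein-coding genes. In replicate 1 the count was 7 of 8 (67.5% of all genes), with Akr1c18, Pik3c2g and Akr1b8 added, and in replicate 2 it was 4 of 8 (64.5%). Sult1e1 had no promoter peak in either replicate. These shares lie close to or on both sides of the background and say nothing particular about the 8 genes. Promoters rich in CpG are open far more often, so the genes were also set beside the genes of their own CpG decile. Thrb (decile 7, 93.8% open in both replicates) and Akr1b3 (decile 8, 96.4%) are of a kind that is nearly always open. Cyp2f2 (decile 1, 6.76%) and Akr1b7 (decile 2, 15.0%) are of a kind that is seldom open, and both were open. Akr1c18 and Sult1e1 (decile 3, 25.6%) and Akr1b8 (decile 4, 43.3%) were not open in both replicates, and neither was Pik3c2g, whose decile 6 has 88.3%.

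**Figure D1:**
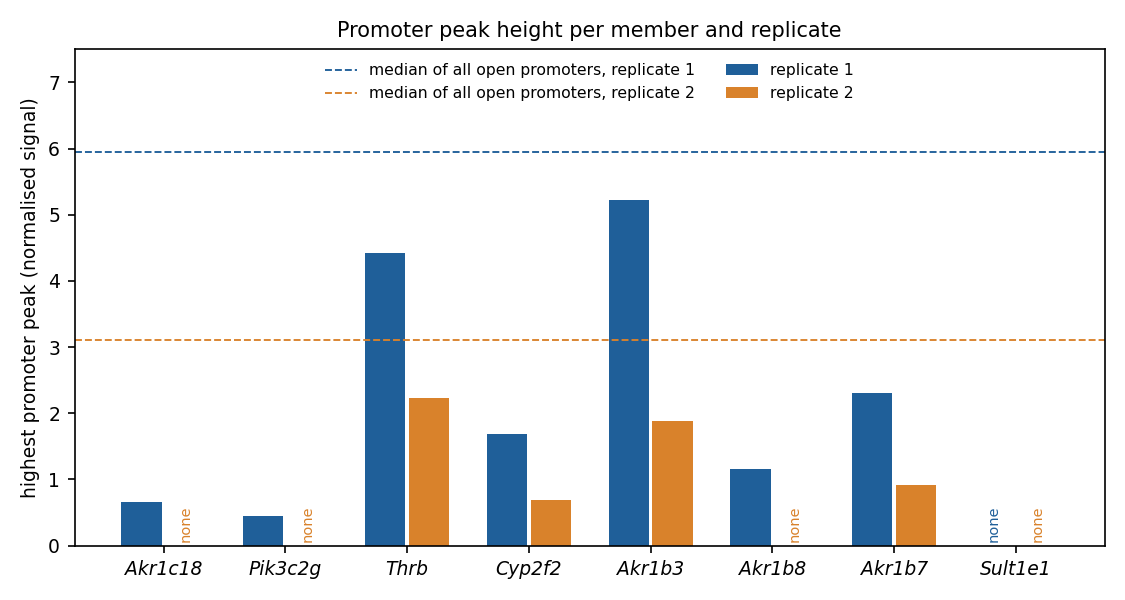
Height of the highest promoter peak (normalised signal) of each gene in replicate 1 (blue) and replicate 2 (orange), 1 bar per sample, with dashed lines at the median of promoters open in both replicates (5.94 and 3.11). Every bar stands below the line of its own replicate, Akr1b3 (5.22 and 1.88) and Thrb (4.43 and 2.24) come nearest, and "none" marks a promoter with no peak in the shorter list.

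The promoter sequences of 5 genes are shown because they set promoters open in both replicates beside promoters seen in 1. Each is 170 bases before and 30 bases from the most 5' annotated start, on the strand of the gene, read from mm10. In the first 3, capitals mark bases of replicate 1 footprints that overlap a replicate 2 footprint by at least 1 bp. The 3 had a promoter peak in both replicates. These are Akr1b7 at chr6:34412164-34412363 on the plus strand, Akr1b3 at chr6:34317449-34317648 on the minus strand and Cyp2f2 at chr7:27119739-27119938 on the plus strand. In the last 2, Akr1b8 at chr6:34353949-34354148 on the plus strand and Akr1c18 at chr13:4150625-4150824 on the minus strand, which had a promoter peak in replicate 1 only, capitals mark the letters GGGCGG or their reverse complement.
Akr1b7: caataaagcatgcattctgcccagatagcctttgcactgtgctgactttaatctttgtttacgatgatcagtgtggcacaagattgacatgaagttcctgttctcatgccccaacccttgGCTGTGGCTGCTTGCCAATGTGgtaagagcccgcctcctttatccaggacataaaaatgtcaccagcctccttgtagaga
Akr1b3: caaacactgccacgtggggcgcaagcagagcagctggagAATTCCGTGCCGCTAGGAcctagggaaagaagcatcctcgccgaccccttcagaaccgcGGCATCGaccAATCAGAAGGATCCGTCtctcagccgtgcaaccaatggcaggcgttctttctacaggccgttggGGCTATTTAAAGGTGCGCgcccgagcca
Cyp2f2: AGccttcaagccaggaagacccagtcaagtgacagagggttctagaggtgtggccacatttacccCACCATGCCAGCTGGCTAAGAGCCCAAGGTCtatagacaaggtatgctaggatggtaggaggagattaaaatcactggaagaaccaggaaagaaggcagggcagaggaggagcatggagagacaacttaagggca
Akr1b8: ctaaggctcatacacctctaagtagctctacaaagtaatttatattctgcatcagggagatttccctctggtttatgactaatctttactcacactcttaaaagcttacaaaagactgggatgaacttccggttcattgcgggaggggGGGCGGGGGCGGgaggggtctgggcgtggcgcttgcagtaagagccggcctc
Akr1c18: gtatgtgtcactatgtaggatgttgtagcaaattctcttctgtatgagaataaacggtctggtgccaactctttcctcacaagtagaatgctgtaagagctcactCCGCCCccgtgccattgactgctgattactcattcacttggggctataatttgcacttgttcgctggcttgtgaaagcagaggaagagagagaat

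Short motifs were searched as exact letters on both strands of these 200 base windows, and a match is a description of the letters only. Akr1b7 held CCAAT 36 bases before its start, inside a footprint of both replicates, and 31.4% of all promoter windows hold these letters. Akr1b3 held CCAAT on the strand of the gene at 64 and 31 bases before its start, the first with its centre in a footprint of both replicates and the second outside, and an E-box (CACGTG, 5.90% of promoters) at 160 bases, outside any footprint. Akr1b8 held GGGCGG at 22 and 16 bases before its start, Akr1c18 held it at 65 on the opposite strand and Thrb at 122, outside footprints in each case, and 39.2% of promoters hold it. Sult1e1 held AGGTCA, the letters that nuclear receptors bind, 130 bases before its start on the opposite strand (9.98% of promoters). Although the Akr1b enzymes are close relatives, their promoter windows were no closer than 41.1% to 44.9% identical in the 6 pairings of Akr1b3, Akr1b8, Akr1b10 and Akr1b7, after global alignment.

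The X-zone markers came first. Akr1c18 encodes a hydroxysteroid dehydrogenase that inactivates progesterone, and it lies at chr13:4132615-4150654 on the minus strand. Its promoter peak was 0.662 high in replicate 1, at chr13:4150621-4150800, and replicate 2 had neither a peak there in either of its lists nor any of the 2027 promoter bases listed at an FDR under 0.05, against 308 bases in replicate 1. The gene was thus open at its start in 1 of 2 samples, at a low height. Of 9613 replicate 1 peaks within 10% of this height, 23.7% were found in replicate 2, and of the 1936 that lie at promoters 40.2%. A weak promoter peak missing from replicate 2 was therefore the more common outcome at this height.

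The window of Akr1c18 held 1 distal peak in both replicates, where distal means more than 1 kb from every annotated start of any gene. It lay 39.95 kb downstream of the start, at chr13:4110601-4110800 between Akr1c18 and Akr1c14, with heights of 1.14 and 0.707. Replicate 1 had a further 2 distal peaks, 1 of them in an intron, at 0.468 and 0.541, and both appeared in the longer list of replicate 2 at 0.372 and 0.291. Of the neighbouring steroid reductase genes, Akr1c13 had a promoter peak of 1.24 in replicate 1 and, in replicate 2, one of 0.285 in the longer list only, with 85 bases under the replicate 1 peak listed at an FDR under 0.05. Akr1c14 had one of 0.354 in replicate 1, at a start 10.6 kb from its most 5' one, and replicate 2 had neither a peak in its lists nor a listed base there.

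Pik3c2g encodes a class II phosphoinositide 3-kinase and spans 382 kb, chr6:139587221-139969284 on the plus strand. It has 14 annotated starts, and the 1 kb around the most 5' of them held no base listed at an FDR under 0.05 in either replicate. The promoter peak of 0.455 in replicate 1 lay at chr6:139841363-139841510, 254 kb inside the gene, where 3 transcripts annotated as non-coding begin, and replicate 2 had neither a peak there in either of its lists nor a base listed at an FDR under 0.05. The longer lists had an overlapping promoter peak elsewhere in the gene, 149 kb after the 5' start, of 0.201 and 0.174. Of 6353 replicate 1 peaks within 10% of 0.455 in height 13.3% were found in replicate 2, and of 1135 at promoters 29.7%. So the protein-coding 5' start had no peak, although the gene counts as open in replicate 1 by the rule.

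Inside Pik3c2g, 4 distal peaks in introns were found in both replicates. The highest had heights of 1.48 and 1.10 and lay 2.27 kb after the 5' start, at chr6:139589381-139589600. The next, at 367 kb and at 287 kb, had 1.13 and 0.527, and 0.929 and 0.583. The peak nearest to the 5' start was thus also the highest of the gene in both samples. It held the letters CAAGGTCA, which the adrenal factor SF-1 binds, outside any footprint, and was the only 1 of 17 distal peaks with them (5.88%, beside 2.81% of all shared distal peaks).

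Thrb, at chr14:17660261-18038090 on the plus strand, had 3 shared promoter peaks around its first 4 annotated starts. The highest, at chr14:17660741-17661220, had heights of 4.43 and 2.24. A second, 1.04 kb before the most 5' start, had 4.004 and 1.66, and the smallest, 0.455 kb before it, had 1.14 and 0.589. No peak of the shorter lists lay at the 2 starts inside the gene, at positions 17962821 and 17981529. The longer list of replicate 1 had one of 0.307 within 1 kb of the second, at chr14:17981124-17981258. There 131 bases were listed at an FDR under 0.05 in replicate 1 and 0 in replicate 2. The start region was thus open in both replicates, and neither internal protein-coding start was. The promoter held 6 footprints found in both replicates, and 80.8% of all shared promoter peaks hold at least 1. Against promoters open in both replicates, the Thrb height stood at percentile 37.6 in replicate 1 and 32.8 in replicate 2.

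Away from its starts, Thrb had 19 distal peaks in replicate 1 and 4 of them in replicate 2. The highest shared one, at chr14:17632961-17633180 and 27.2 kb before the gene, had 2.87 and 1.74, and the next, in introns 307 kb and 200 kb after the start, had 1.12 and 0.558, and 1.04 and 0.459. Most replicate 1 peaks along the gene were low, and they made Thrb, which has the second longest window, the one of the 8 genes with the most distal peaks seen in 1 sample only. The fourth shared peak, at 187 kb, was higher in replicate 2 (0.508 and 0.626), which only 2 of the 30 shared peaks in the windows were.

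**Figure D2:**
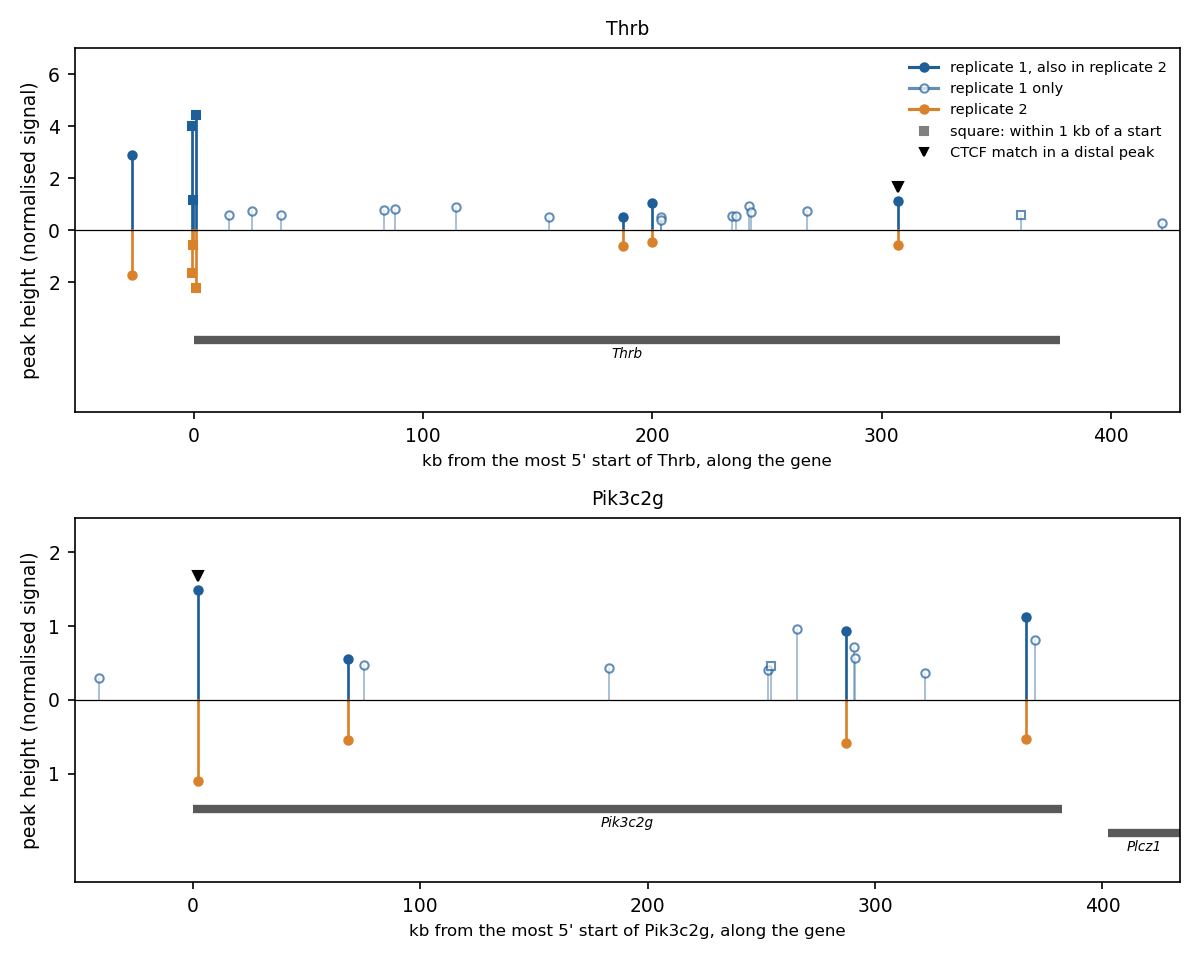
Peak height (normalised signal) along Thrb and Pik3c2g by distance in kb from the most 5' start, replicate 1 upward in blue, replicate 2 downward in orange, open symbols for peaks of replicate 1 only, squares within 1 kb of an annotated start and triangles for distal peaks with a CTCF match. Thrb shows high peaks at its start, up to 4.43 and 2.24, and Pik3c2g none there, with its highest peak (1.48 and 1.10) at 2.27 kb.

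Cyp2f2 encodes a cytochrome P450 best known from the club cells of the lung, and it lies at chr7:27119909-27133660 on the plus strand. Its promoter peak, at chr7:27119721-27120000, had heights of 1.69 and 0.694. A distal peak 1.58 kb before the start, at chr7:27118141-27118526, was of like height, 1.91 and 0.744. The start region was thus open in both samples, at a low level: percentile 13.4 and 4.59 of promoters open in both replicates. Of the lung markers Scgb1a1, Scgb3a2, Sftpc and Sftpb none had a promoter peak in either replicate, and Foxj1, of ciliated cells, had 9.48 and 6.04. Those without a peak are of CpG decile 3 (25.6% open in both replicates) and Foxj1 is of decile 7 (93.8%). The part of lung or ciliated cells was not tested. The promoter held 2 footprints found in both replicates, and the peak before it held 4. The longer of the 2, of 31 bases in replicate 1, was centred 89 bases before the start and is shown in capitals above.

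The third shared peak of Cyp2f2, in an intron 12.9 kb after the start, had 0.936 and 0.942 and is the other one that was not higher in replicate 1. The window of Cyp2f2 had 67 and 49 footprints, of which 30 were found in both replicates, the highest shared number of the 8 genes, though it also takes in the broad open promoters of Egln2 and Rab4b. Further P450 genes of the chromosome 7 cluster gave no promoter peak in the shorter lists, Cyp2t4 inside the window included. The counts were 0 of 12 in both replicates (63.6% of all genes) and 0 of 12 in replicate 1 (67.5%). With the longer lists 1 of 12 was open in both replicates. Most of the 12 are of CpG deciles 1 and 2, of which only 6.76% and 15.0% are open in both replicates, so few would be open on that ground alone.

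**Figure D3:**
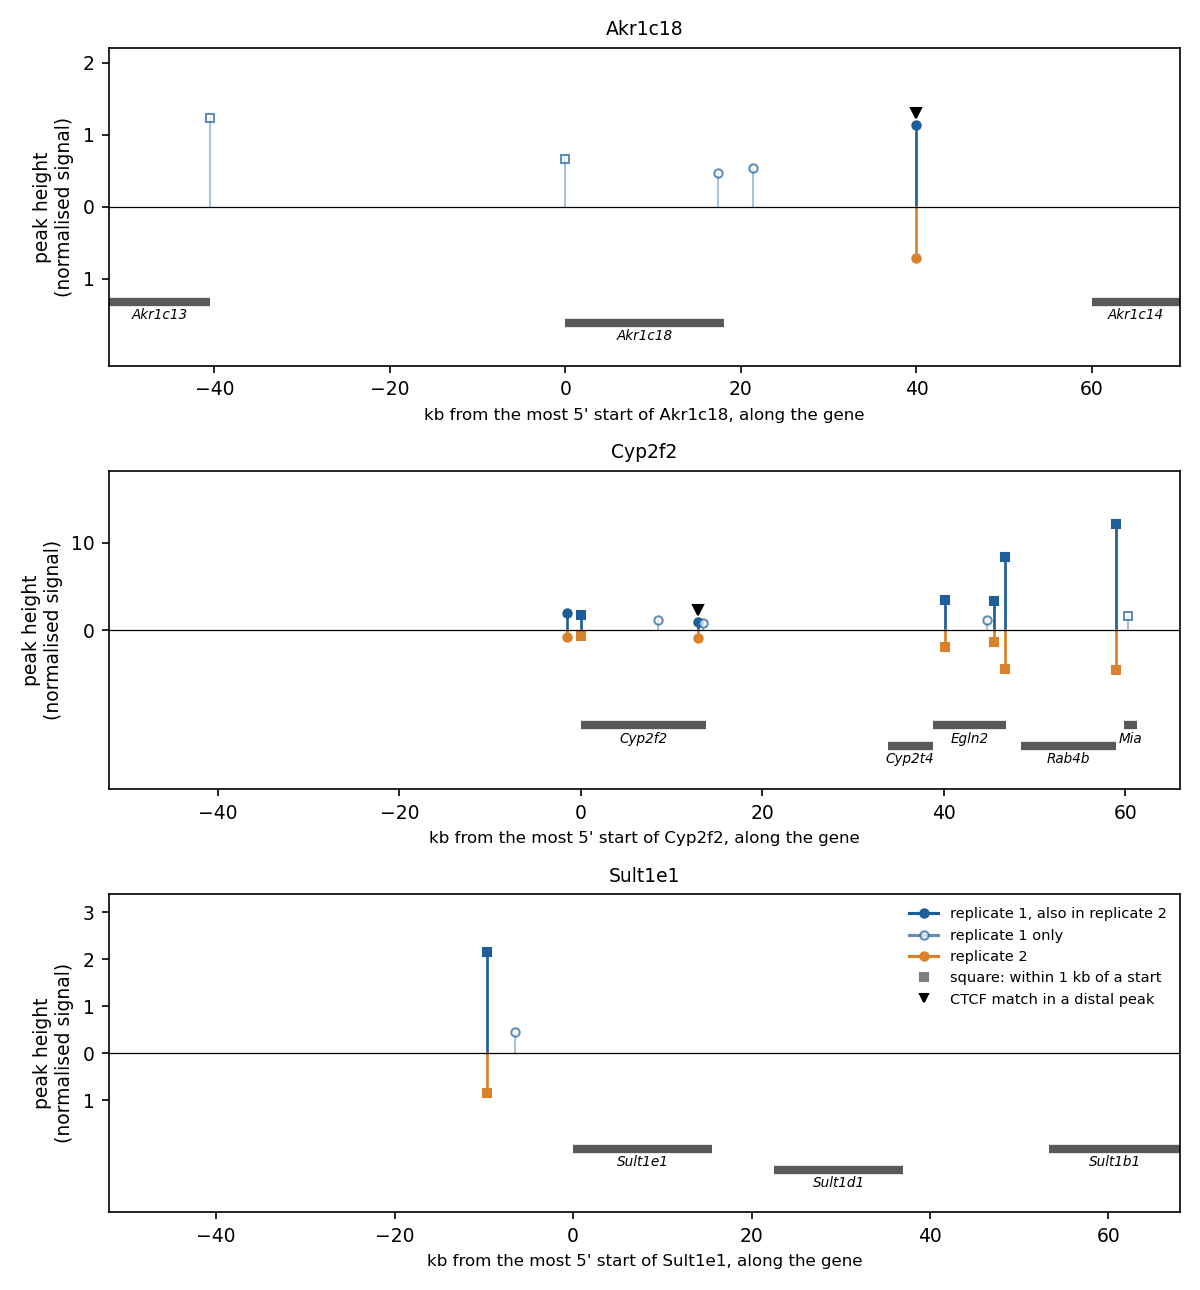
Peak height (normalised signal, a separate scale per gene) by distance in kb from the most 5' start of Akr1c18, Cyp2f2 and Sult1e1, replicate 1 upward, replicate 2 downward, open symbols for replicate 1 only. Akr1c18 shows a start peak of 0.662 in replicate 1 alone, Cyp2f2 paired peaks at its start (1.69 and 0.694) and Sult1e1 none at its start.

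Among the aldo-keto reductases of the Akr1b cluster, Akr1b3 encodes aldose reductase, which turns glucose into sorbitol. It lies at chr6:34302434-34317478 on the minus strand. Its promoter peak, at chr6:34317161-34317660, was the highest of the 8 genes in replicate 1 (5.22) and the second in replicate 2 (1.88). Replicate 1 had another promoter peak of 1.15, 0.903 kb before the start, which replicate 2 lacked. Inside the main peak 5 footprints were found in both replicates. Akr1b3 stood at percentile 43.7 and 27.0 of promoters open in both replicates, below the median in both samples.

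Akr1b7 encodes an enzyme that reduces the aldehyde left by cholesterol side chain cleavage and that responds to corticotropin in the cortex. It lies at chr6:34412334-34423142 on the plus strand. The promoter peak, at chr6:34412181-34412400, had heights of 2.30 and 0.911, and 778 and 416 of its 2001 promoter bases were listed at an FDR under 0.05. Among all promoters open in both replicates this was low, percentile 19.7 and 9.17, and within its own CpG decile it was at percentile 41.0 in replicate 1. The promoter held 2 footprints found in both replicates. By their extent in replicate 1, they were of 22 bases centred 39 bases before the start and of 9 bases centred 37 bases after it. Akr1b7 was thus one of the seldom-open, CpG-poor promoters with an open and partly spared start in both samples.

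Akr1b8 encodes a relative of aldose reductase that acts on lipid aldehydes, and it lies at chr6:34354119-34368463 on the plus strand. In replicate 1 its promoter had 3 peaks, of 1.16, 0.628 and 0.441. In replicate 2 the shorter list had none, while the longer list had a peak of 0.595 and 192 promoter bases were listed, the lowest at an FDR of 0.0074. Of 9225 replicate 1 peaks within 10% of 1.16 in height, 52.0% were found in replicate 2, and of 2349 at promoters 59.7%. Unlike Akr1c18, the Akr1b8 promoter therefore carried some listed signal in both samples. Akr1b10, the fourth gene of the cluster, had 4.04 and 2.05. By the shorter list 3 of the 4 Akr1b promoters were thus open in both replicates, beside 63.6% of all genes. By the longer list it was 4 of 4, beside 67.7%. Counts of 4 genes say nothing particular about the cluster.

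By the shorter list the Akr1b windows held more shared distal peaks for their length than the other windows. Akr1b7 was above Cyp2f2 only through its shorter window, as each held 2. The Akr1b windows overlap, and all 3 peaks counted for Akr1b8 were also counted for Akr1b3 or Akr1b7. Per 100 kb of window Akr1b3 had 3.48 shared distal peaks, Akr1b8 2.62 and Akr1b7 1.80, at percentiles 86.4, 76.1 and 62.1 of all protein-coding genes, whose median is 1.11. Cyp2f2 had 1.76, Akr1c18 0.847, Thrb 0.837 and Pik3c2g 0.830, the last 3 below the median, and Sult1e1 had 0. This contrast did not hold with the longer list, where Cyp2f2 had 3.52, Akr1b8 3.50, Akr1b3 3.48, Akr1c18 3.39, Akr1b7 2.71, Pik3c2g 2.49, Thrb 1.46 and Sult1e1 0, beside a median of 2.46. The number of shared distal peaks went from 1 to 4 at Akr1c18, from 4 to 12 at Pik3c2g, from 4 to 7 at Thrb and from 2 to 4 at Cyp2f2, and was 4 at Akr1b3 with both lists. At least 1 shared distal peak lay in the windows of 7 of the 8 genes, beside 73.0% of all genes. The 4 highest distal peaks of the cluster were at chr6:34371781-34372000 between Akr1b8 and Akr1b10 (2.61 and 2.03), at chr6:34346621-34346820 between Akr1b3 and Akr1b8 (2.44 and 1.41), at chr6:34448081-34448260 beyond Akr1b7 (2.22 and 1.21) and at chr6:34292941-34293200 beyond the 3' end of Akr1b3 (1.87 and 1.18). Each lay between genes or outside the row of enzyme genes, and in both samples they kept this order.

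**Figure D4:**
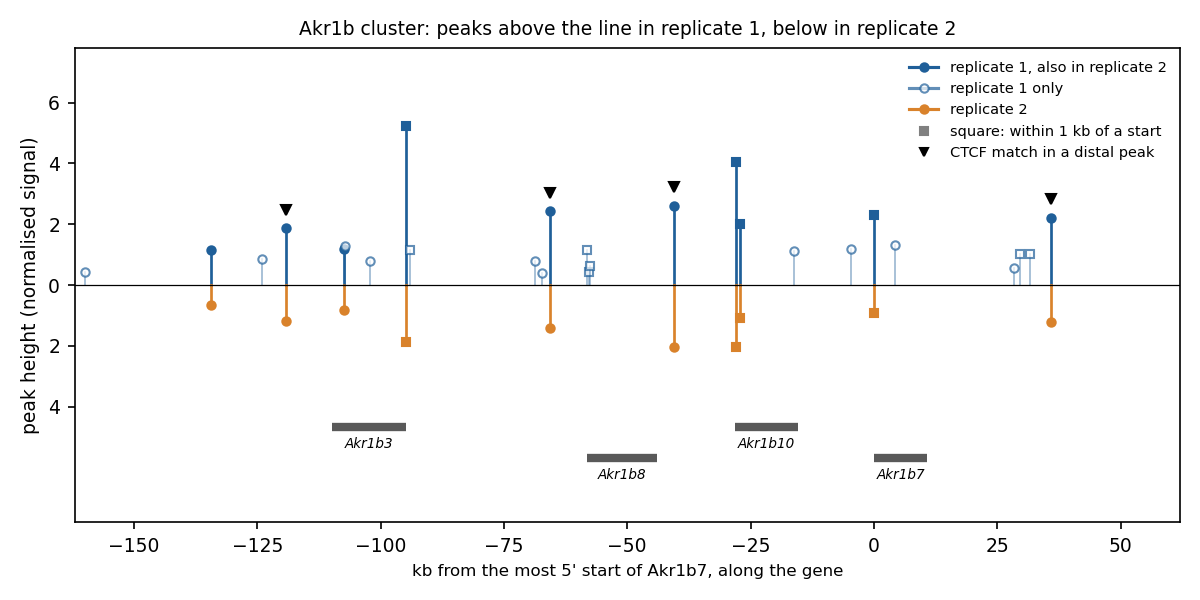
Peak height (normalised signal) along the Akr1b cluster by distance in kb from the start of Akr1b7, replicate 1 upward in blue, replicate 2 downward in orange, open symbols for replicate 1 only, squares within 1 kb of an annotated start. Promoter peaks of Akr1b3, Akr1b10 and Akr1b7 appear in both replicates, that of Akr1b8 in replicate 1 only, and the 4 triangles are distal peaks with a CTCF match.

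The sequences at those peaks share a motif, that of CTCF, a zinc finger protein that binds DNA at chromatin loop anchors and boundaries. The motif was added after the sequences had been seen, so its count is a description. Of the 17 shared distal peaks in the windows, 8 (47.1%) held the CTCF consensus with at most 1 mismatch in their central 200 bases on either strand, beside 32.2% of all 26639 shared distal peaks, and 6 (35.3%) held it exactly, beside 12.7%. In all 8 the centre of the match lay in a footprint of both replicates, as in 89.4% of all distal peaks with a match. The 8 sites are shown as 41 bases of mm10 centred on the match and on its strand, named by gene and distance from its most 5' start, with the match in capitals. They are at chr6:34293002-34293042, chr6:34346720-34346760, chr6:34371875-34371915, chr6:34448153-34448193, chr13:4110675-4110715, chr6:139589459-139589499, chr14:17967527-17967567 and chr7:27132742-27132782, in the order shown, and on the plus, minus, minus, minus, plus, plus, minus and plus strand.
Akr1b3 24.4 kb: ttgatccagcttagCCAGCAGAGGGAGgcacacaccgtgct
Akr1b3 29.2 kb: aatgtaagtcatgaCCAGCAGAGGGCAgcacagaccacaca
Akr1b7 40.4 kb: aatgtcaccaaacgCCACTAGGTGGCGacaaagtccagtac
Akr1b7 35.8 kb: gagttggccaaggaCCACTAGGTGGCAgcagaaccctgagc
Akr1c18 39.95 kb: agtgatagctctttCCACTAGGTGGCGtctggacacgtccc
Pik3c2g 2.27 kb: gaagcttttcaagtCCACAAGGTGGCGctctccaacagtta
Thrb 307 kb: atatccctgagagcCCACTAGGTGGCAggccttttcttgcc
Cyp2f2 12.9 kb: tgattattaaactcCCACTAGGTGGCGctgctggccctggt

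In 5 of the 8 the first 12 letters of the match were the same, CCACTAGGTGGC. In the Akr1b cluster the match beyond the 3' end of Akr1b3 was on the plus strand and the other three were on the minus strand. Only 1 of the 8 sites overlapped bases masked as repeats in the reference. A further match, with 1 mismatch and in a footprint of both replicates, lay in the Thrb promoter peak 1.04 kb before the start. Whether CTCF was bound was not measured.

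Sult1e1, the last of the 8, encodes estrogen sulfotransferase, which inactivates estrogens by adding sulfate, and lies at chr5:87575969-87591594 on the minus strand. It had no promoter peak in either replicate, none of its 2001 promoter bases was listed at an FDR under 0.05, and no shared distal peak lay in its window. Its neighbours Sult1b1 and Sult1d1 had no promoter peak either. The single shared peak of the window, 2.16 and 0.837 high at chr5:87601041-87601380 and 9.62 kb before the start, lay over Gm43368, an annotated processed pseudogene. Its sequence was 81.4% identical to a transcript of Gapdh over 345 aligned columns. How reads with several matches in the genome were placed is not given in the sources used here, and its part in that peak was not tested. The Sult1e1 start thus had no listed open chromatin in either sample, as at the most 5' start of Pik3c2g.

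In all 6 stretches together, 30 peaks were shared, 51 were in replicate 1 only and 0 in replicate 2 only. The 30 were 6 promoter peaks of the 8 genes, 7 of other starts and 17 distal peaks. Of 57 distal peaks in replicate 1, 17 (29.8%) were found in replicate 2, beside 41.0% of all 66598 distal peaks of replicate 1. Of the 40 that were not, 14 were in the longer list of replicate 2 and 17 held a base listed at an FDR under 0.05 there. Their median height in replicate 1 was 0.642, beside 0.668 for all distal peaks of replicate 1 only. The shared distal peaks were lower than usual, with medians of 1.14 and 0.744 beside 1.50 and 0.874, and 15 of 17 (88.2%) held a footprint found in both replicates, beside 85.6%. The share with footprints was near the background, while the heights and the share found again were under it, with no test of either difference.

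Listed bases also differed between the windows. Over the genome 1.89% and 1.25% of bases were listed at an FDR under 0.05 in replicates 1 and 2. The windows of Akr1b8 (7.97% and 3.17%), Cyp2f2 (5.74% and 4.003%), Akr1b3 (5.67% and 2.32%) and Akr1b7 (5.01% and 2.01%) were above that in both replicates. Thrb (2.30% and 0.991%) was above it in replicate 1 and below it in replicate 2. Akr1c18 (1.72% and 0.988%), Pik3c2g (1.20% and 0.566%) and Sult1e1 (1.51% and 0.517%) were below it in both. Among the 8 windows, those of the 2 usual X-zone markers and the sulfotransferase thus had the lowest shares, though Akr1c18 and Thrb were nearly equal in replicate 2. The genome value covers all bases, and the share in like windows of other genes was not taken. The Cyp2f2 window also takes in the promoters of Egln2 and Rab4b.

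To compare replicates beyond their general difference, the log2 ratio of replicate 1 to replicate 2 was taken relative to the median ratio over the 48355 shared peaks. After centring, the middle 50% of all shared peaks lay between -0.34 and 0.32. The promoter of Akr1b3 was at 0.74 ± 0.10, Akr1b7 at 0.60 ± 0.14, Cyp2f2 at 0.55 ± 0.16 and the 3 Thrb promoter peaks at 0.54 ± 0.11, 0.25 ± 0.09 and 0.22 ± 0.18. The error is the counting SE that follows if 1 step of the heights is 1 tag, a reading inferred from the values. All 6 leaned to replicate 1, and 4 of them beyond the middle 50%, but 3 of the 6 lie at Thrb. The middle 50% is that of all shared peaks, of which 26639 are distal, and the same was not taken over promoter peaks alone. The 17 distal peaks had a median of -0.05 and ran from -1.03 ± 0.22, at Thrb 187 kb, to 0.62 ± 0.16, before Cyp2f2, so distal peaks lay on both sides. The median of all 30 was 0.16. With 2 samples of 1 group, differences between tissue samples and between libraries cannot be told apart.

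**Figure D5:**
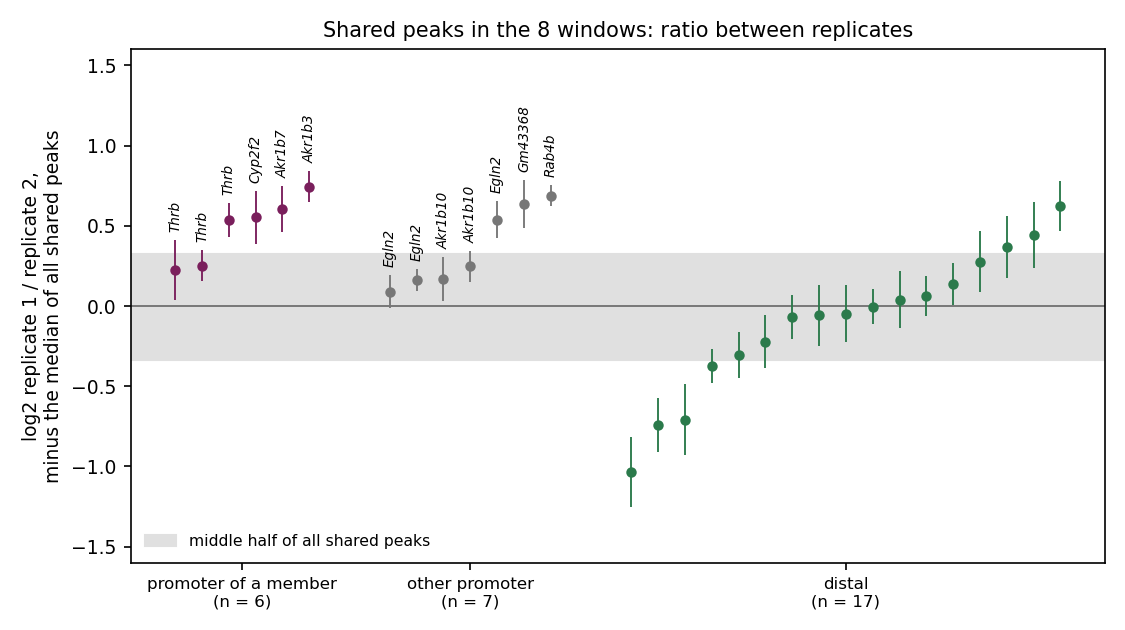
Centred log2 ratio of replicate 1 to replicate 2 (y axis) for the 30 shared peaks, sorted within promoters of the 8 genes (n = 6), other promoters (n = 7) and distal peaks (n = 17), with bars for the inferred counting SE and grey for the middle 50% of all shared peaks. All 6 promoter peaks lie above 0, and the distal peaks spread from -1.03 to 0.62.

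Across the 4 genes open in both replicates, the heights as mean ± SD (n = 2) were 3.55 ± 2.36 at Akr1b3, 3.33 ± 1.55 at Thrb, 1.61 ± 0.982 at Akr1b7 and 1.19 ± 0.705 at Cyp2f2. The order was Akr1b3, Thrb, Akr1b7, Cyp2f2 in replicate 1 and Thrb, Akr1b3, Akr1b7, Cyp2f2 in replicate 2. Akr1b7 was above Cyp2f2, and both were below Akr1b3 and Thrb, in each of the 2 samples. The SD also holds the general difference in height between the replicates. The ranges of mean ± SD of all 4 genes overlapped, but they ignore that the genes were measured in the same 2 samples. That overlap therefore cannot say whether genes differ within a sample, and no test was run.

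The wider pathways were described by the share of promoters open in both replicates, beside the 63.6% of all genes. Of 13 further aldo-keto reductases 5 were open in both replicates and 11 in replicate 1. The highest were Akr7a5 (11.1 and 8.51), which handles aflatoxin and succinic semialdehyde, Akr1a1 (7.63 and 4.09), the broad aldehyde reductase, and Akr1e1 (5.75 and 2.81). Of 6 genes of the polyol pathway and aldehyde handling 6 were open, led by Aldh3a2 (7.60 and 4.42), Adh5 (6.18 and 2.66) and Aldh2 (5.76 and 2.68), which clear aldehydes. Of 10 progesterone and prostaglandin genes 7 were open, led by the steroid reductase gene Srd5a1 (12.3 and 4.56), Hsd17b7 (11.4 and 4.47) and the prostaglandin E synthase gene Ptges (2.09 and 1.55). The aldehyde enzymes named here were picked as the highest of their lists, so their standing above the 8 genes follows in part from that choice. Others of the same lists were lower than Akr1b3 in both samples, such as Sord (3.48 and 1.65), or had no promoter peak, such as Akr1c6.

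Of 14 thyroid hormone genes 12 were open in both replicates. Led by the receptor partner Rxrb (16.5 and 6.77), the thyroid hormone and amino acid carrier Slc16a10 (10.2 and 4.28) and the hormone target Klf9 (9.37 and 4.54), they included promoters higher than that of Thrb. Of 9 phosphoinositide 3-kinase genes 8 were open, the highest Pik3cb (11.7 and 6.21), Pik3r1 (11.5 and 5.34) and Pik3ca (10.4 and 3.17), whereas Pik3c2g was not. Of 10 sulfotransferase and sulfate donor genes 4 were open in both replicates and 6 in replicate 1, the highest Papss1 (16.7 and 6.34) and Papss2 (3.38 and 2.13), which make the sulfate donor, and Sult1a1 in replicate 1 only (1.47). The enzymes that supply sulfate were thus open where Sult1e1 was not. Their promoters differ in CpG, however. Papss1 is of decile 8 (96.4% open in both replicates), Papss2 of decile 7 (93.8%) and Sult1e1 of decile 3 (25.6%).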

How the data were processed

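DNase-seq of 2 samples (1 group, replicates numbered in the labels) was used. The listing deposited with the files gives mm10 as the build and 1 sample as the source of each file, so replicates were not pooled. Aligner, peak caller and footprint caller: not given in the sources used here. The deposited peak height is a signal normalised by the authors, a whole multiple of 1 step per sample in the lists (0.00668 and 0.00620, within 5% of a step). The deposited FDR is a p-value after adjustment, listed under 0.05, and the footprint lists give the same p-value of 0.01 for each footprint, read as the threshold of the call. Read depth is unknown. Reads from CAST/EiJ alleles were placed on mm10, and the effect on these genes was not tested.

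The shorter of 2 peak lists per sample was the main one. Shared peaks overlap by at least 1 bp. Footprints found in both replicates do so too, and their lengths, centres and marked bases are those of replicate 1. CpG observed over expected was taken within 500 bp of the start. Genes came from GENCODE M21 and sequence from mm10, with Python 3.11.15, pandas 2.3.3 and pysam 0.24.0. The overlap code was tested on simulated data. The genes, lists and markers were chosen with earlier results of these data known. Named were the 8 genes, up to 3 genes per list with the highest promoter peak in replicate 1, list genes inside the windows, the 3 highest shared distal peaks per window and every promoter peak of the 8 genes. The Thrb peak at 187 kb, Foxj1, the CTCF motif, Gm43368, Egln2 and Rab4b were chosen after their values were seen. Alternatives were the longer list, the 50% highest peaks, lists of equal length, a 50% overlap, other promoter and window widths and each replicate alone.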

Additional observations from a re-analysis of the deposited data

How the results depend on the processing

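Under other settings, 36 values for the windows as a whole stayed within 1.5 times (counts) or within the spread, 10 moved further, and none reversed. With the longer peak list the shared distal peaks in the windows went from 17 to 34, and Pik3c2g (at an internal start) and Akr1b8 joined the genes open in both replicates, beside 67.7% of all genes. With the 50% highest peaks of each list 2 genes (Thrb and Akr1b3) were open and 2 had a shared promoter footprint, beside 55.9% of all genes open, and 6 distal peaks were shared, 6 of them with a shared footprint. Taking each replicate alone, the genes with a promoter peak ranged from 4 to 7, distal peaks from 17 to 57, genes with a promoter footprint from 3 to 7 and distal peaks with a footprint from 16 to 50, the higher value in replicate 1 each time. For shared footprints the replicate 1 centre had to lie in the joined peak of both replicates. In replicate 2 alone the centre had to lie in its own peak, which 3 of its 4 open genes met. Without centring, the median log2 ratio was 0.90 rather than 0.16, and the other settings gave 0.11 to 0.20. Counting only starts of protein-coding genes, a setting added after the data were seen, gave 18 shared distal peaks, 16 with a footprint. No paired analysis was possible because there was 1 group. Heights near the lower end of the lists limit Akr1c18 and Pik3c2g. The Akr1b8 promoter peak (1.16) stayed among the 50% highest peaks of replicate 1, while its replicate 2 peak (0.595) was in the longer list only. Placement of reads among the related Akr1b and Akr1c genes was not tested.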

Other observations

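The open promoters nearest to Cyp2f2 belong to other genes. Egln2, which encodes an oxygen-sensing prolyl hydroxylase, had a promoter peak of 8.30 and 4.47 in replicates 1 and 2, 46.7 kb after the Cyp2f2 start, and Rab4b, a gene of endosome recycling, had 12.2 and 4.54 at 58.9 kb. Both were several times higher than the Cyp2f2 promoter (1.69 and 0.694) in both samples.

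Shared distal peaks with a CTCF match had a median centred log2 ratio of -0.21 over the genome (8575 peaks, median heights 1.62 and 1.12), and those without had 0.08 (18064 peaks, 1.43 and 0.787). In the windows of the 8 genes the medians were -0.06 with a match (8 peaks, from -0.74 to 0.28) and -0.0043 without (9 peaks, from -1.03 to 0.62), so the ranges overlapped. No test was run on this pattern, which was looked at after the data had been seen.

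Bases masked as repeats in the reference made up 0 of the central 200 in 8 of the 17 shared distal peaks (beside 52.6% of all shared distal peaks) and more than 50% in 0 of them (beside 2.26%). The peak over Gm43368 had 41.5%.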
